A study of Rattus norvegicus with 4 samples.

Results

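The genes described here are 10 regulators of G-protein signalling (RGS): Rgs1, Rgs2, Rgs3, Rgs4, Rgs5, Rgs10, Rgs14, Rgs16, Rgs18 and Rgs19. They were chosen by matching the RefSeq accession of each probe to these symbols, which gave 16 probes among the 45598 of the array and 10 genes among the 16581 that could be named. Rgs5 was selected on its high value on the WT control array alone, so its levels are a description with no test. RNA of vessels from male rats was hybridised to 1-colour microarrays, in which the brightness of a spot reads the amount of labelled RNA bound to its probe. The 4 groups were wild-type Wistar rats without treatment (WT control), the same genotype with angiotensin II for 24 h (WT Ang II), rats with a deletion of PKCbeta without treatment (KO control) and those rats with angiotensin II for 24 h (KO Ang II). Angiotensin II is a peptide hormone that raises blood pressure, and PKCbeta is protein kinase C beta, the product of Prkcb. The labels name 4 rats of each genotype and call the material vessel, with no artery named and no age. The vessels were treated after isolation, and the sources used here do not say how the deletion was made, whether an array held RNA of 1 rat or more, or whether control vessels were also kept for 24 h.

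Each group held 1 array, so a difference between 2 arrays has no replicate check and no p-value. Signals below are processed signals in scanner units, with the scanner software's own error of each after the ± sign (n = 1 array). Values in array order are those of WT control first, then WT Ang II, then KO control, then KO Ang II. Scaled levels are log2 signals minus the array's 75th percentile, which was 47.3 to 62.4 signal units. The 4 arrays lay on 1 slide at positions 1 to 4, 1 group per position, so position and group cannot be told apart. Between 40.7% and 43.6% of probes were well above background, and no spot was saturated. A gene is called detected where it was well above background. For a gene detected on 1 of 2 arrays compared, the ratio is a bound against the lowest signal of any detected probe on the dim array, which was 5.30 to 7.14, or against the gene's own reading if that was higher. The targeted gene was checked first. The replicated probe of Prkcb gave 14.8 ± 2.46 without and 18.0 ± 2.66 with Ang II in WT. In KO it read 1.94 ± 1.94 and 1.89 ± 1.83, neither of them well above background. The bounds on the KO level were at least 2.11-fold lower in untreated and at least 2.54-fold lower in treated vessels. Of the markers that define vessel wall cells, all 12 of smooth muscle and 9 of 11 of pericytes, 6 of 8 probed of endothelium and 8 of 8 probed of fibroblasts were detected on 1 or more arrays.

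RGS proteins end a G-protein signal. A hormone receptor loads a G alpha subunit with GTP, and an RGS protein speeds the hydrolysis of that GTP, so that G alpha and G beta-gamma join again. In the vessel wall, angiotensin II acts through a receptor coupled to Gq, whose effector phospholipase C beta releases calcium and activates protein kinase C. Rgs2 acts with preference on Gq and is known to limit vasoconstrictor signals and blood pressure. Rgs5 acts on Gi and Gq and is a widely used marker of pericytes and arterial smooth muscle. Rgs4 is a close relative of Rgs5, Rgs1 is best known from lymphocytes and other leukocytes, and Rgs18 from platelets.

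Of the 10 genes, 7 were detected on 1 or more arrays. Rgs1, Rgs2, Rgs3, Rgs10 and Rgs19 were so on all 4 arrays, Rgs5 on 3 and Rgs4 on the 2 WT arrays. Rgs14, Rgs16 and Rgs18 were not well above background on any array. Of their 16 probes, 10 were detected somewhere and 8 on every array. For comparison, 9966 of the 16581 named genes were detected somewhere and 8600 on all 4.

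The stretches of 250 bases before the start are shown for 4 genes, Rgs5, Rgs2, Rgs4 and Rgs1. Rgs5 and Rgs2 stood apart on the WT control array in opposite directions, but Rgs5 was chosen for its high value there. Rgs1 was lower on both KO arrays. Rgs4 was not detected on them and entered through the WT arrays alone, so no pattern shared with Rgs1 is read from it. The sequences are from RefSeq on the rat assembly GRCr8, written 5′ to 3′ on the strand of the gene, and capitals mark matches on either strand to a motif searched by its letters.
Rgs5, chr13:84380827-84381076, plus strand: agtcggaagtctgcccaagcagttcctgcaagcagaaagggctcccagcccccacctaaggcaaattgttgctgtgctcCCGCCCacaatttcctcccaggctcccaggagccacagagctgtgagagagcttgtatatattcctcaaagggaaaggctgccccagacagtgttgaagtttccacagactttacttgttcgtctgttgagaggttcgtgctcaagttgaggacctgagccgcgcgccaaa
Rgs2, chr13:58352667-58352916, minus strand: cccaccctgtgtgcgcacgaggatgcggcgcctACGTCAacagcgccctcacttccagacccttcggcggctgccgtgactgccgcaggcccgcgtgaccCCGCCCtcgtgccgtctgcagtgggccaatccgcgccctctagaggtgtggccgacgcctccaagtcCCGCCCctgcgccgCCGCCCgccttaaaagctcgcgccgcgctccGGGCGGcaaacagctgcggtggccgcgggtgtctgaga
Rgs4, chr13:84475885-84476134, minus strand: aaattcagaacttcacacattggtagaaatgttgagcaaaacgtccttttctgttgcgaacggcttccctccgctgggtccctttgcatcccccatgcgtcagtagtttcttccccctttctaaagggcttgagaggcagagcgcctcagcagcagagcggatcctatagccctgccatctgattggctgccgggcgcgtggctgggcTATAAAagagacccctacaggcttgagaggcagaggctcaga
Rgs1, chr13:58573188-58573437, minus strand: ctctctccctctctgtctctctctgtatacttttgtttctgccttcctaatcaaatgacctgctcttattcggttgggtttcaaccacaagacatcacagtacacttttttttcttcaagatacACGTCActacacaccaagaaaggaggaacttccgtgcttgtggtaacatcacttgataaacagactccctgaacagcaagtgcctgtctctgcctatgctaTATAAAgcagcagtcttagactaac

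The motifs searched on both strands were the TATA box (TATAAA), the half-site of the cAMP response element (TGACGT), the GC box (GGGCGG), the AP-1 site (TGANTCA) and the CArG box of serum response factor. Rgs5 held 1 GC box, 171 bases before the start. Rgs2 held 4 GC boxes, the farthest of them 150 and 83 bases before the start, and 1 cAMP half-site at 217 bases. Rgs4 held 1 TATA box at 42 bases. Rgs1 held 1 TATA box at 25 bases and 1 cAMP half-site at 126 bases. No motif in this set was shared by Rgs4 and Rgs1 apart from the TATA box, or by Rgs5 and Rgs2 apart from the GC box. Among 33469 promoters of the same length in the same table, 12.9% held the TATA box, 6.95% the cAMP half-site, 30.5% the GC box, 6.34% the AP-1 site and 1.5% the CArG box. A match describes letters only. Of the 10 genes, 6 lie on chromosome 13 in GRCr8. Rgs5 and Rgs4 are neighbours there, and Rgs2, Rgs13, Rgs1, Rgs21 and Rgs18 follow each other without another gene of the table between them.

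Rgs5 was far higher on the WT control array than on any other. Its brighter probe gave a signal of 64.4 ± 6.65 in WT control, 9.0 ± 1.81 in WT Ang II, 4.26 ± 1.71 in KO control and, with Ang II, 9.80 ± 1.91 in KO. The KO control signal was not well above background. On the scaled log2 scale the levels were 0.13, -2.79, -3.47 and -2.41 in that order. WT control is the one high array, and the other 3 readings lie within 6 signal units of each other and near the edge of detection. The level of WT Ang II was 7.61-fold lower than that of WT control, a log2 ratio of -2.93. The level of KO control was at least 9.16-fold lower than WT control, a log2 bound of -3.20. Between the 2 arrays with Ang II, KO was 1.30-fold higher than WT, a log2 ratio of 0.38 that is smaller than the combined scanner error of 0.40. Within KO, the level with Ang II was at least 1.57-fold higher than without, a log2 bound of 0.65. Both large ratios share the WT control array, so they are not 2 separate observations.

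A second probe of Rgs5 did not show this pattern. It gave 7.25 ± 1.95, 2.03 ± 2.04, 6.88 ± 2.20 and 1.91 ± 1.92 in array order, and was not well above background on any array. Its KO control reading is nearly as high as its WT control reading, whereas that of the brighter probe is the lowest of its 4. Each of the 2 probes has 1 spot per array, so the high value of Rgs5 rests on 1 spot. No spot of Rgs5 was marked as an outlier or as saturated by the scanner software. After normexp background correction, which compresses dim signals, the brighter probe had a log2 ratio of -1.0 for WT Ang II against WT control, just short of 2-fold before rounding, and the KO control bound against WT control was -0.94. The bound for Ang II in KO was 0.04 after this correction.

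High values on a single array were not confined to Rgs5. Of the 9966 detected genes, 45 (0.452%) were at least 2-fold higher on WT control than on each of the other arrays, and Rgs5 was the only RGS member among them. WT Ang II was the single high array for 51 genes, KO control for 54 and KO Ang II for 9. The genes whose profile over the 4 arrays was most like that of Rgs5, by the root mean square difference of centred log2 levels among 9965 genes, were Bco1 (0.44), Kctd16 (0.45), Ahrr (0.48), Samd7 (0.48) and Magea4 (0.48). Bco1 encodes a beta-carotene oxygenase, and Ahrr the repressor of the aryl hydrocarbon receptor. Bco1 read 19.8, 2.37, 1.67 and 1.66 signal units in array order. Kctd16, an auxiliary subunit of GABA-B receptors, read 66.9, 14.8, 3.16 and 7.72. Bco1, Ahrr, Samd7 and Magea4 were well above background on WT control alone, and Kctd16 on both WT arrays. Likeness over 4 arrays with 1 array per group describes these arrays only.

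**Figure D1:**
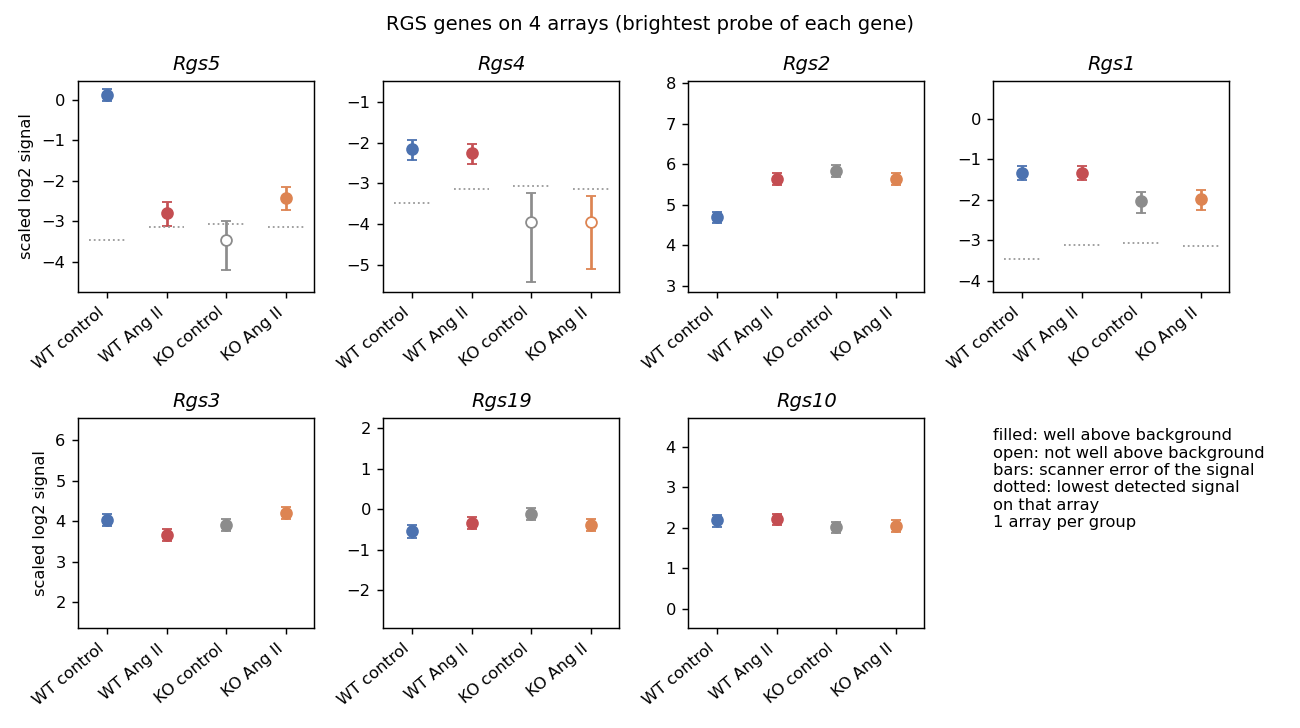
Scaled log2 signal of the brightest probe of each of 7 RGS genes on the 4 arrays (1 array per group). Vertical bars are the scanner error of the signal, open circles are readings not well above background, and dotted segments mark the lowest detected signal of each array. Each panel spans the same log2 range. Rgs5 is high on WT control at 0.13 and between -3.47 and -2.41 elsewhere, Rgs2 is low on WT control at 4.69, and Rgs4 is detected on the WT arrays only.

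The other pericyte markers did not follow Rgs5. Of 11 pericyte markers, 9 were well above background on all 4 arrays, while Higd1b and Vtn were not on any. The median of the 9, each relative to its own mean over the arrays, was 0.07, -0.02, -0.02 and -0.01 in array order, where Rgs5 read 2.27, -0.66, -1.34 and -0.28. None of the 9 was 2-fold different in any of the 4 single comparisons. The summed scaled signal of the list, which adds each gene's signal over the array's 75th percentile, was 135, 156, 143 and 135 in array order. Of the 9, Pdgfrb, Cox4i2 and Ndufa4l2 were highest on WT control, as Rgs5 was, Kcnj8, Mcam, Notch3 and Anpep were lowest there, and Cspg4 and Abcc9 lay between. Among 12 smooth muscle markers, Des, the gene of desmin, was highest on WT control at a scaled level of 3.73 against 2.22, 2.62 and 2.81 on the others in array order. The list as a whole had relative medians of -0.32, -0.23, 0.28 and 0.30 in the same order. In whole vessels, fewer cells of a type and less RNA per cell cannot be told apart.

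Rgs2 showed the reverse of Rgs5: it was lowest on WT control and nearly level on the other arrays. Its single probe gave 1516 ± 152 in WT control, 3112 ± 311 in WT Ang II, 2690 ± 269 in KO control and, with Ang II, 2596 ± 260 in KO. Scaled levels were 4.69, 5.64, 5.83 and 5.64. The last 3 lie within 0.19 of each other, which is less than the combined scanner error of 0.20, and WT control lies 0.95 below the nearest of them. Rgs2 was 1.93-fold higher in WT Ang II than in WT control, a log2 ratio of 0.95 that stays just short of 2-fold. In KO the same treatment gave a log2 ratio of -0.19. The response in KO was lower than that in WT by a log2 difference of -1.14, which is 2.20-fold, and 2.87% of the 8600 genes measured on all arrays differed at least 2-fold in this direction (1.27% in the other). Rgs2 was 2.20-fold higher in KO control than in WT control, a log2 ratio of 1.14. With Ang II the KO and WT arrays differed by 0.00. The ratio for Ang II in WT, the ratio for KO without Ang II and the difference of responses all use the WT control array.

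The pericyte markers were split beside Rgs2 too: 4 of the 9 were lowest on WT control, as Rgs2 was, and 3 were highest there. Of the first, Kcnj8, the pore subunit of the vascular ATP-sensitive potassium channel, had log2 ratios of 0.90 for Ang II in WT and -0.34 in KO, and Mcam, an adhesion molecule of the vessel wall, had 0.67 and -0.27. Of the others, Pdgfrb, a receptor used as a pericyte marker, had scaled levels of 4.57, 4.10, 4.27 and 4.20 in array order. Smooth muscle markers were higher in KO than in WT with a median log2 ratio of 0.58 without Ang II and 0.54 with it, where the median over all genes was 0.01 and -0.04. Their part in the level of Rgs2 was not tested. Across 10 alternatives of scaling, background correction, filter and probe choice, the log2 ratio of Rgs2 ran from 0.87 to 0.97 for Ang II in WT, from 0.96 to 1.14 for KO without Ang II and from -1.14 to -1.04 for the difference of responses. The value of 0.96, under normexp correction, falls short of 2-fold.

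Rgs4 was detected on both WT arrays and on neither KO array. Its main probe is printed 10 times on each array, so its precision on an array can be read from the spots. The mean signal was 13.2 in WT control (SD of spots 2.01, 10 spots), 13.1 in WT Ang II (SD 2.56, 9 spots after 1 outlier), 3.07 in KO control (SD 1.26, 10 spots) and, with Ang II, 3.39 in KO (SD 2.69, 10 spots). Spots well above background numbered 9 of 10, 8 of 9, 0 of 10 and 1 of 10. The lowest and highest spots were 9.47 and 15.2 in WT control and 9.81 and 17.6 in WT Ang II, against 1.76 and 4.90 in KO control and, with Ang II, 1.66 and 10.03 in KO. WT and KO spots did not overlap without Ang II, and with it 1 KO spot lay within the WT range. These signals are not scaled, and the KO arrays were dimmer, with 75th percentiles of 58.7, 62.4, 47.3 and 52.1 in array order. How many other replicated probes separate in this way was not counted, so the separation is not read as particular to Rgs4. Spots of 1 array share its RNA, so they show the precision of the array and not the spread between rats. A second probe of Rgs4, with 1 spot, gave 4.81 ± 1.80, 4.11 ± 1.78, 2.92 ± 1.80 and 1.67 ± 1.68 and was not well above background on any array.

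**Figure D2:**
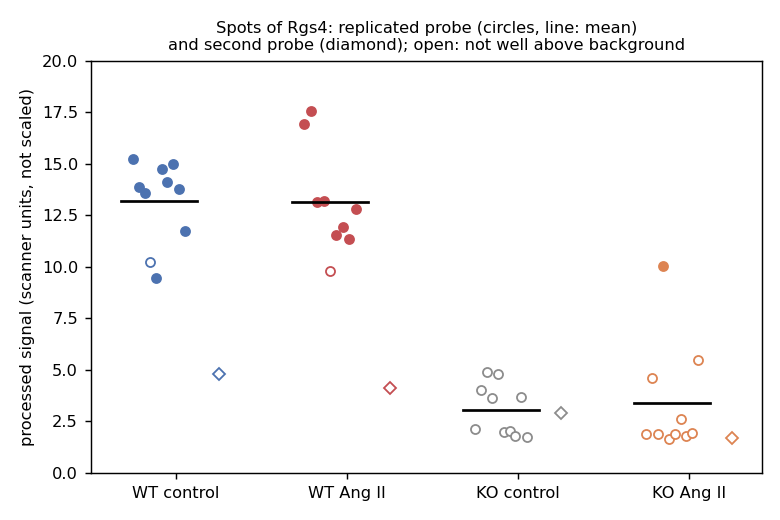
Processed signal in scanner units, not scaled, of every spot of Rgs4 on the 4 arrays. Circles are spots of the replicated probe with a line at their mean, diamonds are the second probe, and open symbols are not well above background. The WT circles lie between 9.47 and 17.6, and all KO circles but 1 of KO Ang II at 10.03 lie below them. The KO arrays were dimmer, and other replicated probes that separate in this way were not counted. The separation is therefore not read as particular to Rgs4.

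As a bound against the detection limit, Rgs4 was at least 1.88-fold lower in KO control than in WT control (log2 -0.91) and at least 1.85-fold lower in KO Ang II than in WT Ang II (log2 -0.89). Taken as read, the log2 ratios were -1.79 and -1.69. These comparisons share no array. If a probe was called detected only where more than 50% of its spots were, which raised the detection limit to 7.92 to 8.31, the bounds shrank to -0.35 and -0.42, and after normexp correction they were -0.08 and -0.06. Ang II in WT gave -0.09, and in KO no ratio was formed because neither array detected the gene. The additive fit of genotype and treatment gives no test of Rgs4, since the gene entered it only through the WT arrays, where it is high. The readings were lower in KO in both pairs of arrays, but entry through the WT arrays alone favours that outcome. Nothing is read from it.

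Rgs1 was detected everywhere and was lower on both KO arrays. Its signal was 23.3 ± 2.88 in WT control, 24.9 ± 2.99 in WT Ang II, 11.5 ± 2.06 in KO control and, with Ang II, 13.1 ± 2.15 in KO. Scaled levels were -1.33, -1.33, -2.04 and -1.99, so the arrays of 1 genotype lie within 0.05 of each other and the genotypes lie 0.66 apart at the nearest. That gap is larger than the combined scanner error of 0.30. KO was 1.64-fold lower than WT without Ang II and 1.59-fold lower with it, with log2 ratios of -0.71 and -0.67, neither of which reaches 2-fold. Ang II gave 0.01 in WT and 0.05 in KO. The additive fit over all 4 arrays, with 1 residual degree of freedom, gave a genotype effect of -0.69 (SE 0.15) with a limma p of 0.0095 and a Benjamini-Hochberg adjusted p of 0.117, or 0.163 when limma's variance was allowed to follow mean expression (a variance trend). After normexp correction the ratios were -0.11 and -0.05.

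Leukocyte markers were read beside Rgs1 and Rgs4. Of 10 macrophage markers, 9 were detected and Mrc1 was not on any array. Their summed scaled signal was 56.8 in WT control, 65.1 in WT Ang II, 29.8 in KO control and, with Ang II, 36.4 in KO. Their median log2 ratio of KO against WT was -0.91 without Ang II and -0.31 with it. Adgre1, the gene of the macrophage antigen F4/80, had -1.47 and -2.04. Of the T cell markers, Cd3d and Cd4 were detected, with a summed scaled signal of 2.39 to 2.49, and Cd3e, Cd3g, Cd2 and Cd8a were not. None of 6 probed neutrophil markers was detected. The 5 detected Schwann cell and nerve markers had median KO ratios of -0.68 and -0.49 and summed signals of 21.6, 23.1, 14.4 and 12.9 in array order, with Mbp not detected. Fibroblast markers had medians of -0.38 and -0.69 with summed signals of 656, 687, 425 and 386, endothelial markers -0.58 and -0.12 with 23.6, 20.9, 18.0 and 19.5. White adipocyte markers, of which Adipoq, Fabp4 and Cfd were detected, had medians of -1.8 and -1.22, with summed signals of 4.64, 3.19, 2.51 and 2.70. With 3 genes compared, the median of -1.8 is the bound of Fabp4, beside a bound of -2.34 for Adipoq and a measured -0.58 for Cfd. It is therefore not ranked against the other lists. Fabp4 was detected on the WT arrays alone, as Rgs4 was, and entered only through them. Lep, Lipe and Cidec were not detected. The part of any of these cell types in the levels of Rgs1 and Rgs4 was not tested.

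**Figure D3:**
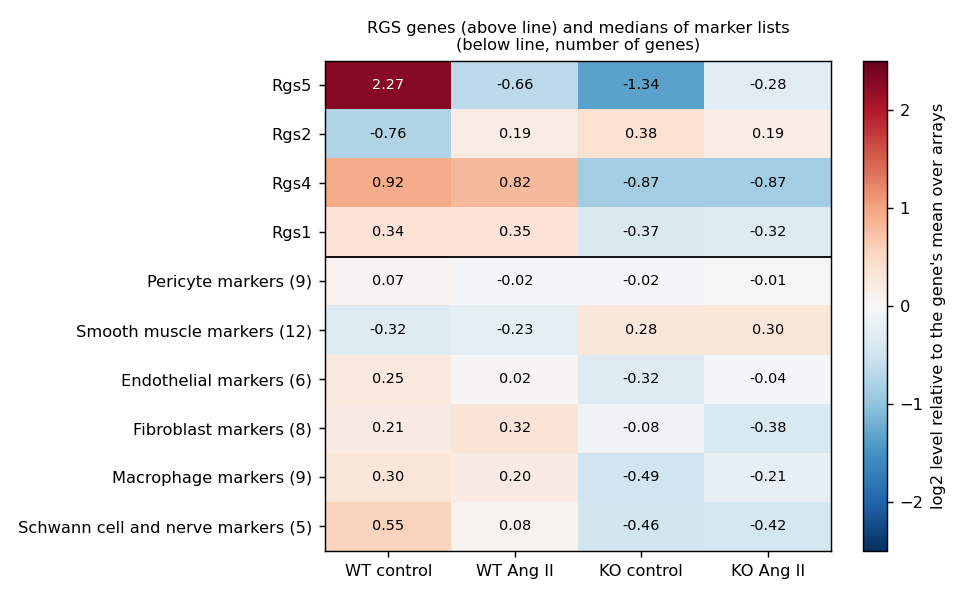
Log2 level of Rgs5, Rgs2, Rgs4 and Rgs1 on each array relative to the gene's own mean over the 4 arrays, above the line, and the median of the same quantity over marker lists with at least 5 detected genes, below it. Colour and printed values show the same number. The 9 pericyte markers stay between -0.02 and 0.07 where Rgs5 runs from 2.27 to -1.34. Macrophage, Schwann cell and nerve, fibroblast and endothelial medians are lower on both KO arrays, as Rgs1 is, and smooth muscle medians are higher there. Rgs4 was not detected on the KO arrays and entered through the WT arrays alone, so nothing is read from its pattern.

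Rgs3 was detected on all arrays, and its probes differed in how far they moved. Rgs3 acts on Gi and Gq and occurs in several isoforms. The brightest probe gave 967 ± 96.7 in WT control, 795 ± 79.5 in WT Ang II, 713 ± 71.3 in KO control and, with Ang II, 965 ± 96.5 in KO, with scaled levels of 4.04, 3.67, 3.91 and 4.21. Its log2 ratios were -0.37 for Ang II in WT, 0.30 in KO, -0.13 for KO without Ang II and 0.54 with it, all short of 2-fold. A second probe, matched to another transcript model of the gene, read 144 ± 14.5, 78.6 ± 8.05, 57.8 ± 6.06 and 93.9 ± 9.55. Its log2 ratios were -0.96 for Ang II in WT, 0.56 in KO, -1.0 for KO without Ang II and 0.52 with it. Both probes were lower with Ang II in WT and higher with it in KO, and the difference of responses was 0.67 on the first and 1.52 on the second. With the mean of both probes as the gene's value the difference was 1.09, past 2-fold. The remaining probe was not well above background on any array, with 1.72 to 4.25 signal units.

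Rgs10, a regulator of Gi known from immune cells, platelets and microglia, was level across the arrays on its main probes. The brightest gave 266 ± 26.7 in WT control, 290 ± 29.0 in WT Ang II, 191 ± 19.2 in KO control and, with Ang II, 217 ± 21.7 in KO, with scaled levels of 2.18, 2.21, 2.01 and 2.05. Every gap between neighbouring levels was within the scanner error, and the 4 log2 ratios lay between -0.17 and 0.04. A second probe gave -0.05 for Ang II in WT, -0.07 in KO, and -0.19 and -0.21 for KO against WT. The remaining, dimmer probe at 33.6 to 54.5 signal units was highest in WT Ang II, with 0.61 for Ang II in WT and -0.07 in KO. Rgs19, also called GAIP, acts on Gi and binds the scaffold GIPC. It gave 40.1 ± 4.35, 49.3 ± 5.18, 43.9 ± 4.69 and 40.03 ± 4.33 in array order, with scaled levels of -0.55, -0.34, -0.11 and -0.38. Its log2 ratios were 0.21 for Ang II in WT, -0.27 in KO, 0.44 for KO without Ang II and -0.04 with it, and its responses differed by -0.48.

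**Figure D4:**
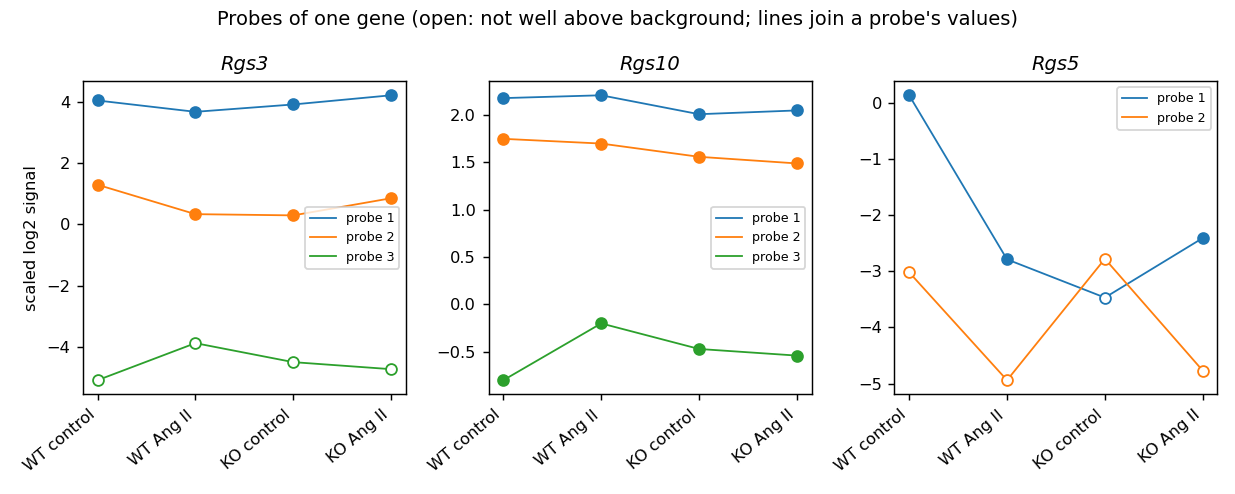
Scaled log2 signal of each probe of Rgs3, Rgs10 and Rgs5 on the 4 arrays. Filled circles are well above background and lines join the values of 1 probe. The first 2 probes of Rgs3 are lower in WT Ang II than in WT control, the first 2 of Rgs10 stay level, and the second probe of Rgs5 does not follow the first.

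The remaining members gave no level. Rgs14, a scaffold that also binds Ras family proteins, read 3.06 ± 1.68 in WT control, 6.91 ± 1.78 in WT Ang II, 2.81 ± 1.74 in KO control and, with Ang II, 6.65 ± 1.82 in KO. Rgs16, which is close in sequence to Rgs4 and Rgs5, read 5.02 ± 1.77, 1.73 ± 1.73, 1.82 ± 1.83 and 1.81 ± 1.82. Rgs18 read 2.21 ± 2.23, 2.07 ± 2.08, 2.07 ± 2.08 and 1.96 ± 1.97. Most of these readings are about as large as their own error, and none was well above background. The platelet markers Pf4, Gp1bb and Itgb3 were detected on all arrays, while Ppbp, Gp9, Gp1ba and Treml1 were not on any.

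Counted over the members, few differences passed 2-fold. For Ang II in WT, 1 of 7 members compared was at least 2-fold lower, Rgs5, and 0 were higher, where 0.998% and 2.02% of all 9819 genes compared were. The WT control reading that chose Rgs5 enters this ratio and that of KO without Ang II, so nothing is read from its part in either count. For Ang II in KO, 0 of 6 members passed, where 0.442% of genes were higher and 1.4% lower. For KO against WT without Ang II, 2 of 7 passed, Rgs5 lower and Rgs2 higher, where 4.05% and 2.91% of genes did. With Ang II, 0 of 7 passed, where 5.2% of genes were lower and 1.95% higher. For the difference of responses, 1 of 5 passed, Rgs2, lower in KO, where 2.87% of genes were lower and 1.27% higher. The balance of all genes moved with the scaling: for Ang II in WT, 198 were higher and 98 lower, against 163 and 122 with the percentile taken over detected probes, and in KO 41 and 130, against 55 and 102 after quantile normalization. Member medians of the log2 ratio were 0.01, 0.05, -0.17, -0.04 and 0.01 in these 5 comparisons, and those of all genes were 0.04, 0.00, 0.01, -0.04 and -0.05. The additive fit called 0.0% of 9387 genes for Ang II and 0.0% for KO in limma at an adjusted p of 0.05, while 360 and 2453 had an unadjusted p under 0.05. With a variance trend it called 0 and 1307. Of the 5 members detected on all 4 arrays, 0 were called for either effect with or without the trend. Without the trend, Rgs1 alone of these had an unadjusted p under 0.05, for KO. With the trend Rgs2 alone did, also for KO, so the member that stands out depends on the variance model. For Rgs2 the fit without the trend gave 0.38 (SE 0.32) for Ang II and 0.57 (SE 0.32) for KO, with an adjusted p of 0.324 for the latter. A response that differs between genotypes counts as error in this fit.

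**Figure D5:**
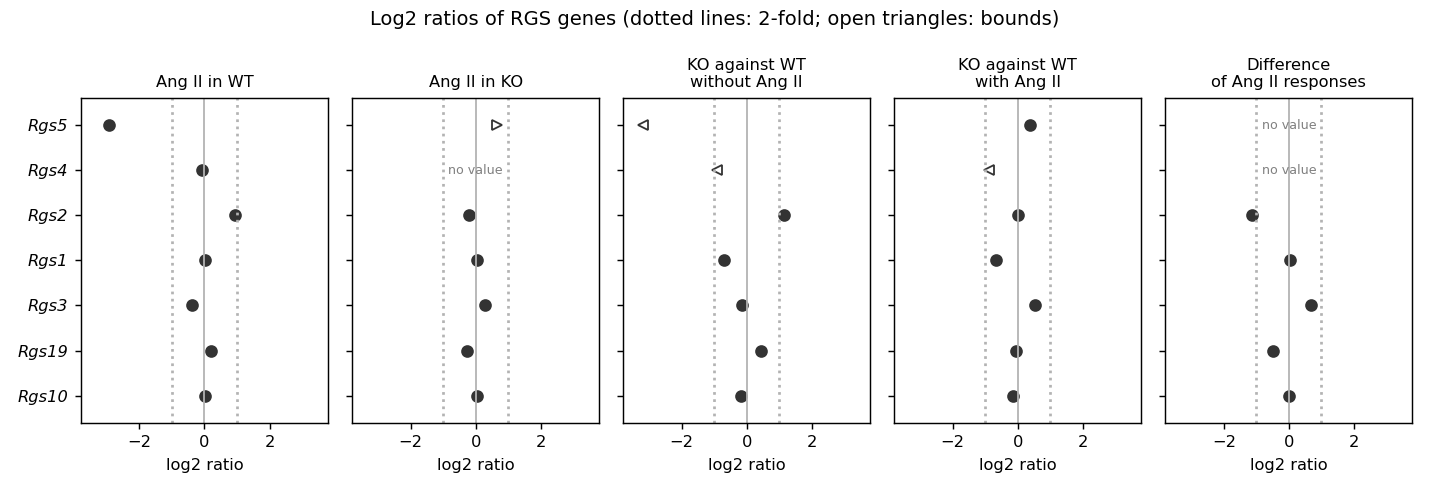
Log2 ratios of 7 RGS genes in the 4 single comparisons and the difference of Ang II responses (KO minus WT), from 1 array per group. Filled circles are ratios measured on both arrays, open triangles are bounds pointing away from 0, and dotted lines mark 2-fold. Rgs5 is more than 2-fold lower in 2 panels, Ang II in WT and KO without Ang II, and Rgs2 passes it for KO without Ang II at 1.14 and for the difference at -1.14.

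Of 17 further genes of the RGS family, 16 had a probe and 7 were detected. Rgs6, a regulator that pairs with the G beta subunit Gnb5, had scaled levels of 0.06, -0.42, -1.08 and -0.90 in array order. It was the one of these 7 genes past 2-fold, with a KO against WT ratio of -1.14 on the log2 scale in untreated vessels, and gave -0.48 in treated ones. A second probe of Rgs6 read 3.09, 3.63, 2.48 and 2.02 signal units in array order and was not well above background on any array. Of all genes, 4.05% were at least 2-fold lower in untreated vessels. Snx13, a sorting nexin with an RGS domain, had -0.62 and -0.52 for KO against WT. Rgs11, Rgs12, Akap10 and Axin1 had ratios between -0.44 and 0.55. Axin2 was detected on KO control only. The genes not detected included Rgs7, Rgs8, Rgs9, Rgs17, Rgs20, Rgs21 and Rgs22.

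Few genes of the G proteins on which RGS proteins act passed 2-fold, but most G alpha genes had ratios below 0 for KO against WT. Of 8 detected G alpha genes, 1 was past 2-fold in any comparison: Gna14, of the Gq class, with KO against WT ratios of -1.11 in untreated and -0.52 in treated vessels. In untreated vessels 6 of the 8 had a ratio below 0, and the list's median was -0.41 where that of all genes was 0.01. In treated vessels the median was -0.07. Gna12 was lower in KO by a similar amount with and without Ang II, at -0.62 and -0.60. Of 12 detected G beta and gamma genes, 1 passed, Gnb3, at a bound of -1.36 for KO without Ang II, where KO control did not detect it. Gnb4 was detected on the WT arrays alone. For KO without Ang II, 4.05% of all genes were at least 2-fold lower and 2.91% higher. With 1 gene past 2-fold in each of these short lists, neither count is read as a result.

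Among receptors of vasoactive hormones, 27 of 39 were detected. Their median log2 ratio of KO against WT was -0.57 without Ang II, with 3 of 23 compared at least 2-fold lower and 0 higher, and -0.48 with it, with 4 of 25 lower and 0 higher. Of all genes, 4.05% were lower and 2.91% higher without Ang II, and 5.2% and 1.95% with it. Agtr1a, the main angiotensin II receptor of the vessel wall, read 25.9 and 27.4 signal units on the WT arrays, without and with Ang II, and 6.33 and 6.25 on the KO arrays, neither of them well above background. Its KO bounds were -1.72 and -1.87, and Ang II in WT gave -0.01. Ednra, an endothelin receptor that couples to Gq, read 24.95 and 19.4 in WT and 3.20 and 5.48 in KO, with bounds of -1.83 and -1.45. Bdkrb2, a bradykinin receptor, was detected on WT Ang II alone at 17.3, with a bound of 1.62 for Ang II in WT. Like Rgs4, Agtr1a and Ednra were thus detected on both WT arrays and on neither KO array. They were named for their large range in the list, which favours such a pattern, so this likeness supports nothing. Receptors detected numbered 23, 24, 18 and 17 in array order, so the medians and counts of the list include bounds. Entry through the WT arrays alone favours lower ratios in KO, so nothing is read from these medians and counts. Of all probes, 43.6%, 43.5%, 40.7% and 41.5% were detected in the same order.

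Of 15 detected effectors of Gq and G12/13, Plcb4, a phospholipase C beta, was higher in KO with 1.26 without Ang II and 0.68 with it, and the targeted gene Prkcb was the one past 2-fold lower. None of 6 detected receptor kinases and arrestins passed 2-fold. Grk5 and Grk6, kinases that switch off active receptors, had 0.73 and 0.74 for KO without Ang II, and Arrb1, an arrestin, had -0.90. Of 8 detected other modulators, Rasd1, a Ras-like protein that acts on G proteins, was lower in KO with Ang II at -1.04, where 5.2% of all genes were at least 2-fold lower.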

How the data were processed

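The RGS genes and the gene lists were chosen with earlier results of these data known. Processed signals, median pixel signals and signal errors are intensity values deposited as scanner output, with background subtraction and spatial detrending, per the file headers, and no normalization between arrays. Flags (well above background, saturated, outlier) are 0 or 1, an other kind of deposited value. Feature Extraction is version 10.7.1.1 per the file headers and 12.1.1.1 per the submitters' processing notes. In the authors' deposited table of log2 values, 98.3% to 98.4% of probes per array lay within 0.01 of log2 processed signal once a constant was added, and the medians were 2.29, 2.22, 2.27 and 2.11 in array order. The origin of its constants is unknown, and it served as an alternative.

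Outlier spots (301 to 372 of 58717 per array) were left out, spots of a probe were averaged, and log2 values were set relative to the array's 75th percentile. A probe was detected where at least 50% of its spots were well above background. A gene took its brightest detected probe. Accessions were matched to RefSeq genes of GRCr8, used for names and promoter sequences only, since the array design names rn4. Size rule was 2-fold. limma 3.58.1 (R 4.3.3) fitted the additive model to the 9387 genes detected on 2 or more arrays, with Benjamini-Hochberg adjusted p-values and 3.13 prior degrees of freedom, and was tested on simulated data. Its result for Rgs4 is not used, since that gene passed the filter only through WT. Tables and plots used Python 3.11.15, numpy 2.4.6, pandas 2.3.3 and matplotlib 3.10.9. Normexp (offset 50) used median pixel signals, since mean signals were not used here. Other alternatives were 2 percentiles over detected probes, quantile normalization, stricter and no filters, the mean of probes, and outlier spots kept. A rule that more than 50% of a probe's spots be detected was chosen after seeing the data. Named genes were all members, detected RGS relatives, the 4 genes with the largest range in each list and the 5 most like Rgs5, and Prkcb. Some were left out for length, and some marker genes are not reported here.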

Additional observations from a re-analysis of the deposited data

Results flagged for a closer look

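Rgs2 was flagged because its log2 ratios for Ang II had opposite signs in the 2 genotypes. Its log2 ratio was 0.95 in WT and -0.19 in KO, a difference of -1.14 (KO minus WT), with 1 array per group. The KO value is within the combined scanner error of 0.20, so it reads as no clear change and not as a fall. The difference was not tested, since no group has a replicate. Of 8600 genes measured on all 4 arrays, 325 (3.78%) had responses of opposite sign that were at least 2-fold apart. The difference uses the WT control array, on which Rgs2 was lowest.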

How the results depend on the processing

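The log2 ratios of the 7 detected members gave 313 values under the alternatives, of which 299 stayed within 1 robust SD of all genes in that comparison, 14 moved further and 0 reversed a called ratio. Signs changed in 8 values of uncalled ratios, all of Rgs1 or Rgs10. Rgs2 for KO against WT with Ang II was left out of this count, since its main ratio rounds to 0.00. It ran from -0.18 to 0.03 under the alternatives. With normexp correction 0 members passed 2-fold for Ang II in WT, and 0 did for KO against WT in untreated vessels. With genes detected on all 4 arrays only, 0 and 1 were, since Rgs5 drops out. With no filter and no bound the counts were 3 for Ang II in WT, 2 for Ang II in KO, 4 for KO without Ang II, 1 for KO with Ang II and 3 for the difference, adding dim readings of Rgs4, Rgs5, Rgs14 and Rgs16. When probes of a gene were averaged, the difference counted 2, Rgs2 and Rgs3. With a variance trend the limma count for KO was 1, Rgs4, which entered the fit through the WT arrays alone, so this count supports nothing. Normexp left 25 and 89 genes of 9611 higher and lower for KO without Ang II, against 280 and 389 of 9613. Arrays lay on 1 slide, so the planned slide block was not run. No paired analysis was possible because the groups share only 1 replicate number. Rgs5, Rgs4 and Rgs1 are dim, and a bound cannot show how far below detection a level lies.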
